A study of Mus musculus with 6 samples.

Results

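Coenzyme Q, or ubiquinone, was followed through the genes that make and handle it in mouse fat precursors turning into beige adipocytes. The set held 10 genes, chosen by symbol from the 45808 gene lines of the deposited count table: Pdss1, Coq2, Coq3, Coq4, Coq5, Coq6, Coq7, Coq9, Coq10a and Coq10b. All 10 were found under their own symbols and all 10 passed the filter on low counts, as did 14459 genes in all.

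The culture was sampled at days 0, 2 and 6, with 2 libraries each, numbered 76 and 77. All cells were labelled WT, wild-type, and were the stromal-vascular fraction, the mixed non-adipocyte cells, of inguinal white fat taken from male mice aged 8 weeks. Day 0 cells were confluent and uninduced. Day 2 cells had spent 2 days in a medium with IBMX (0.5 mM), dexamethasone (5 µM), indomethacin (125 µM), insulin (850 nM), T3 (1 nM) and rosiglitazone (1 µM), and day 6 cells had then been kept in insulin, T3 and rosiglitazone at unchanged doses. The series title concerns Naa10, but no cells without it are analysed here. The libraries of a day are described as biological replicates, but no source says that they stem from different animals or dishes, so p-values reflect only how far these libraries lie apart, which may be technical.

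Coenzyme Q is a lipid of the inner mitochondrial membrane that carries electrons from complexes I and II and from several other dehydrogenases to complex III. Its long isoprenoid tail is built from products of the mevalonate pathway and joined to 4-hydroxybenzoate, a ring derived from tyrosine, and the ring is then hydroxylated, methylated and decarboxylated by a complex of COQ proteins on the matrix side. Brown and beige adipocytes are rich in mitochondria, and their heat production draws on electron flow through this carrier.

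Pairs of values are given for replicate 76 and then replicate 77. All libraries were deep, with 22522221 to 29458374 counts in genes, and levels are given in CPM, read counts scaled to library size with TMM factors. The cultures followed the labelled course: 8 adipocyte markers summed to 1034 to 1201 CPM at day 0, 9562 to 10367 at day 2 and 39524 to 46840 at day 6, although Lep was at 0 on days 0 and 2. Sums for 6 progenitor markers were 1925 to 1974, 1185 to 1375 and 726 to 1082 CPM. The lists for other cell types were low: 7 mural markers summed to 137 to 152, 55.8 to 59.9 and 217 to 225 CPM, 7 endothelial markers to 32.3 to 37.1, 14.0 to 14.5 and 34.5 to 35.2 CPM, and 7 macrophage markers to 38.7 to 44.9, 26.6 to 53.0 and 50.1 to 121 CPM. At day 6 against day 0, 3 mural markers were higher and 4 lower, 1 endothelial marker was higher and 6 lower, and 4 macrophage markers were higher and none lower, beside 35.9% of all genes tested called higher and 35.1% called lower. The mural marker Kcnj8 was at 0 in replicate 76 of day 6, and no other marker of these lists was at 0 in any library. Their part in the results below was not tested. In RNA from whole cultures, fewer cells of a type and less RNA per cell cannot be told apart.

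The genes of coenzyme Q rose in every stage of the pathway by day 6. All 10 were higher at day 6 than at day 0, beside 35.9% of all genes tested called higher and 35.1% called lower. In each of the 10, both day 6 libraries lay above the 4 earlier ones. How many of all genes tested separate in this way was not counted. The median log2 change of the 10 was 2.67, beside -0.01 over all genes tested. By day 2, 7 of the 10 were higher than at day 0 and none lower (33.6% of all genes were called higher and 33.6% lower), with a median log2 change of 0.89 beside 0.00. Between day 2 and day 6, 8 were higher at day 6 and none lower (38.2% of all genes were called higher and 27.5% lower), with a median of 1.42 beside 0.12. For that last comparison the split over all genes was 5519 higher and 3981 lower, and it became 3650 higher and 6181 lower when library totals replaced TMM. Calls are adjusted p under 0.05 by edgeR's quasi-likelihood test over all genes. The 3 comparisons share libraries, so each stage's values are given side by side and are not independent of one another. Summed over the 10 genes, the level was 155 and 152 CPM at day 0, 285 and 279 CPM at day 2, and 857 and 734 CPM at day 6.

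**Figure D1:**
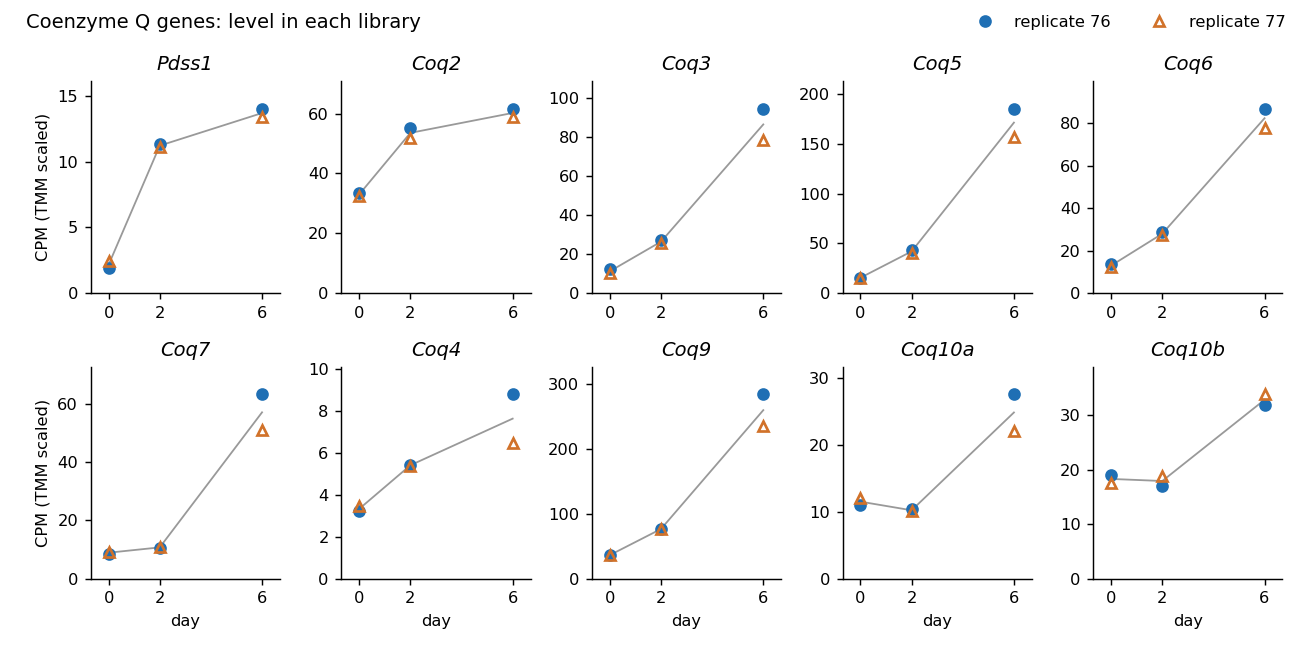
Level of each gene in each library, in TMM-scaled CPM (linear axes starting at 0, own scale per gene), against day of culture. Circles are replicate 76, triangles replicate 77 and the line joins the means of 2 libraries. In all 10 genes both day 6 libraries lie above the 4 earlier ones, a separation that was not counted over all genes. Pdss1 and Coq2 make most of their rise by day 2, while Coq7, Coq10a and Coq10b lie close to their day 0 levels at day 2.

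The tail of coenzyme Q is made by Pdss1, which with its partner Pdss2 extends the isoprenoid chain, and Coq2 joins that tail to the ring. Both rose mainly in the first 2 days. Pdss1 (chromosome 2, 22895522 to 22940266, plus strand, GRCm38) had 1.89 and 2.43 CPM at day 0, from 57 and 59 counts, 11.3 and 11.1 CPM at day 2, and 14.0 and 13.4 CPM at day 6. The groups did not overlap at any stage, and the gap between days 0 and 2 was the widest. Pdss1 was 5.23-fold higher at day 2 than at day 0 (log2 change 2.39, SE 0.15, adjusted p = 4.81e-06 by edgeR), the largest day 2 change among the 10 genes, and 6.39-fold higher at day 6 than at day 0. Of its day 6 change on the log2 scale, 89.2% was in place at day 2. The step between day 2 and day 6 did not pass (log2 change 0.29, SE 0.13, adjusted p = 0.0799 by edgeR) and turned negative with library totals alone as the scaling.

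Some 9.44% of the exonic length of Pdss1 overlaps genes on the opposite strand, among them Abi1, a regulator of actin. No source used here states whether the counting used strand. Abi1 stood at 85.3 ± 2.26 CPM at day 0, 134 ± 7.04 at day 2 and 93.3 ± 3.12 at day 6 (SD, n = 2), and its part in the counts of Pdss1 was not tested.

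Coq2 (chromosome 5, 100654723 to 100675140, minus strand) was at 33.6 and 32.4 CPM at day 0, 55.2 and 51.9 CPM at day 2, and 61.6 and 58.8 CPM at day 6. It was higher in both later stages, by small steps. Coq2 was 1.62-fold higher at day 2 than at day 0 (log2 change 0.70, SE 0.07, adjusted p = 4.87e-05 by edgeR) and 1.82-fold higher at day 6 than at day 0. Of its day 6 change, 80.5% was in place at day 2. The step between day 2 and day 6 was 0.17 on the log2 scale (SE 0.07, adjusted p = 0.0604 by edgeR) and reversed with library totals (log2 change -0.19, adjusted p = 0.0403). Without replicate 77 of day 6 it passed (log2 change 0.20, adjusted p = 0.0473 by edgeR), and over the 11 alternatives its adjusted p was 0.0403 to 0.761. A processed pseudogene, Gm6728, shares part of the transcript, 7.63% of whose 50-base stretches occur in other genes, and it had 0 counts in all 6 libraries.

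The ring is modified by Coq6, a hydroxylase, Coq3, which methylates ring oxygens, and Coq5, which methylates a ring carbon. These 3 genes climbed in both stages. Coq5 (chromosome 5, 115279666 to 115296972, plus strand) was at 15.6 and 15.5 CPM at day 0, 43.2 and 40.9 CPM at day 2, and 186 and 158 CPM at day 6. Coq3 (chromosome 4, 21879673 to 21912162, plus strand) was at 12.1 and 10.3 CPM at day 0, 27.0 and 25.7 CPM at day 2, and 94.5 and 78.4 CPM at day 6. Coq6 (chromosome 12, 84361657 to 84373796, plus strand) was at 13.5 and 12.4 CPM at day 0, 28.6 and 27.3 CPM at day 2, and 86.7 and 77.8 CPM at day 6. In none of the 3 did libraries of different days overlap.

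Coq5 had the largest day 6 change of the set, 11.1-fold higher at day 6 than at day 0 (log2 change 3.47, SE 0.10, adjusted p = 3.80e-08 by edgeR), after 2.71-fold at day 2. Coq3 was 2.34-fold higher at day 2 and 7.68-fold higher at day 6 than at day 0, and Coq6 was 2.15-fold and 6.34-fold higher. At day 2 the 3 genes stood at 41.4% to 41.8% of their day 6 change on the log2 scale. All their steps passed the test in each comparison and under all 11 alternatives.

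Coq7, a di-iron hydroxylase, acts late on the ring and works with Coq9, a lipid-binding protein that presents the substrate to it. By day 2 Coq9 had risen and Coq7 did not pass the test, and by day 6 both were higher than at day 0. Coq9 (chromosome 8, 94838321 to 94854895, plus strand) was at 36.0 and 36.8 CPM at day 0, 76.6 and 76.5 CPM at day 2, and 283 and 235 CPM at day 6. Coq7 (chromosome 7, 118509659 to 118533356, minus strand) was at 8.54 and 9.35 CPM at day 0, 10.6 and 11.0 CPM at day 2, and 63.2 and 50.9 CPM at day 6. The day 2 libraries of Coq9 lay well above those of day 0, and those of Coq7 just above.

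Coq9 was 2.10-fold higher at day 2 than at day 0 (log2 change 1.07, SE 0.10, adjusted p = 2.64e-05 by edgeR). For Coq7 the same step was 1.21-fold (log2 change 0.27, SE 0.13, adjusted p = 0.0999 by edgeR), and the difference between the genes was not tested. The Coq7 value passed in 5 of 11 alternatives (library totals, no filter, and without replicate 77 of day 0 or either library of day 6), with a log2 change of 0.20 to 0.48 and adjusted p of 0.0215 to 0.345. The log2 change without replicate 77 of day 0 was 0.48, a setting in which the median over all genes was 0.14. Between day 2 and day 6, Coq7 made the largest step of the set, 5.30-fold higher at day 6 (log2 change 2.41, SE 0.12, adjusted p = 1.11e-06 by edgeR), and Coq9 was 3.39-fold higher. Over the whole course Coq9 was 7.12-fold and Coq7 6.40-fold higher at day 6 than at day 0.

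Coq4 is needed for the COQ complex and has been tied to ring decarboxylation in human cells. It was among the least abundant of the 10 and its later step was unstable. Coq4 (chromosome 2, 29787493 to 29797935, plus strand) was at 3.21 and 3.46 CPM at day 0, 5.44 and 5.39 CPM at day 2, and 8.80 and 6.48 CPM at day 6, from 84 to 197 counts. Libraries of different days did not overlap, but those of day 6 were far apart. Coq4 was 1.63-fold higher at day 2 than at day 0 (log2 change 0.70, SE 0.19, adjusted p = 0.0109 by edgeR), which did not pass when replicate 76 of day 0 was left out. Over the 11 alternatives its adjusted p was 0.000453 to 0.0675, the highest being the one without that library. It was 2.30-fold higher at day 6 than at day 0 (adjusted p = 0.000532 by edgeR). The step between day 2 and day 6 was 1.41-fold (log2 change 0.50, SE 0.18, adjusted p = 0.037 by edgeR) and did not pass in 8 of 11 alternatives (DESeq2 size factors, library totals, DESeq2, and without any single library other than replicate 77 of day 6), with adjusted p of 0.00505 to 0.499. Without replicate 76 of day 6 its log2 change was 0.26. Some 27.1% of its exonic length overlaps Trub2, a pseudouridine synthase on the opposite strand, and 25.7% of its 50-base stretches occur in other genes. Trub2 stood at 17.7 ± 0.366 CPM at day 0, 21.9 ± 0.256 at day 2 and 33.6 ± 1.08 at day 6 (SD, n = 2), and its part in the counts of Coq4 was not tested.

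Coq10a and Coq10b encode lipid-binding proteins of the START family. Their yeast relative binds coenzyme Q and is needed for respiration rather than for the ring chemistry. Neither gene moved detectably in the first stage and both rose in the second. Coq10a (chromosome 10, 128363100 to 128368997, minus strand) was at 11.0 and 12.0 CPM at day 0, 10.4 and 10.1 CPM at day 2, and 27.6 and 22.1 CPM at day 6. Coq10b (chromosome 1, 55052770 to 55072702, plus strand) was at 19.1 and 17.5 CPM at day 0, 16.9 and 18.9 CPM at day 2, and 31.8 and 33.8 CPM at day 6. The libraries of days 0 and 2 overlapped for Coq10b, and for Coq10a those of day 2 lay just below.

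Coq10a had a log2 change of -0.17 at day 2 against day 0 (SE 0.13, adjusted p = 0.28 by edgeR), which turned to 0.04 without replicate 77 of day 0. Coq10b had one of -0.03 (SE 0.10, adjusted p = 0.781 by edgeR), with the sign reversed in 6 of 11 alternatives, DESeq2 size factors and library totals among them. At day 6 against day 0, Coq10a was 2.16-fold higher (log2 change 1.11, SE 0.13, adjusted p = 7.33e-05 by edgeR) and Coq10b 1.79-fold higher (log2 change 0.84, SE 0.10, adjusted p = 7.56e-05 by edgeR), and these calls stood under all 11 alternatives. Coq10b was also the member that differed from the others between the day 6 libraries: 9 of the 10 genes were higher in replicate 76 than in replicate 77, and Coq10b was lower. The share of all genes higher in replicate 76 was not counted, so these numbers have no baseline. Summed adipocyte markers were 46840 CPM in replicate 76 and 39524 in replicate 77 of day 6, and macrophage markers 121 and 50.1 CPM. Their part in this difference was not tested.

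**Figure D2:**
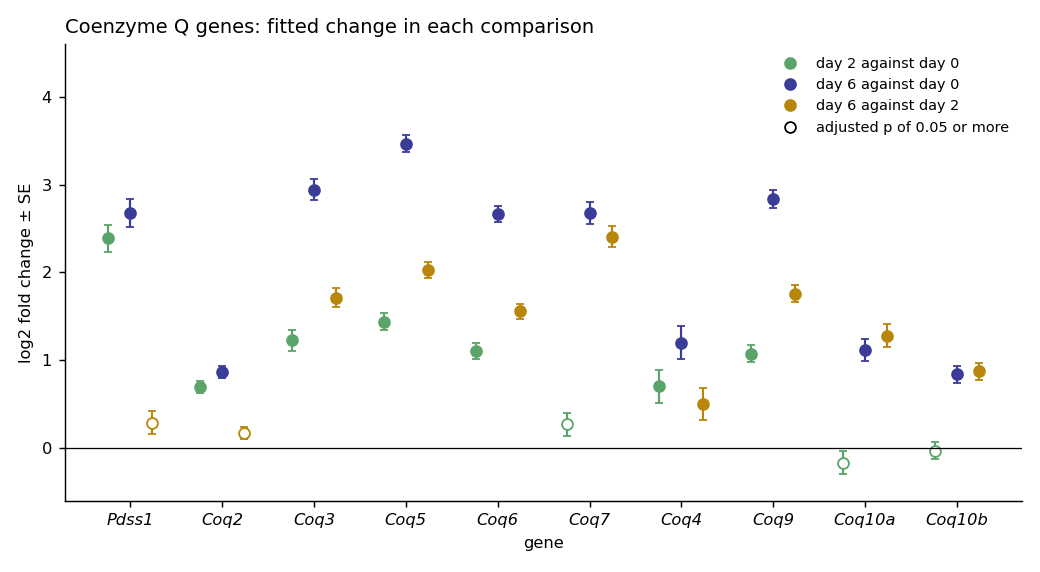
Fitted log2 fold change (y axis) of each gene (x axis) in 3 comparisons, with the later day over the earlier one. Bars are ± 1 SE from the edgeR fit of all 6 libraries, and open circles mark adjusted p of 0.05 or more. Day 6 against day 0 is filled for all 10 genes and runs from 0.84 for Coq10b to 3.47 for Coq5, while 3 genes are open at day 2 against day 0 and 2 at day 6 against day 2.

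Levels of different genes were compared per kilobase (kb) of annotated exon, a length that includes rarely used exons and can understate a gene's level. It also includes stretches that overlap other genes, 27.1% of it for Coq4 and 9.44% for Pdss1. Their effect on these levels was not tested. The order of the genes shifted over the course. At day 0 Coq2 led with 12.6 ± 0.322 CPM per kb, ahead of Coq9 with 11.9 ± 0.191 (SD, n = 2 libraries each). Coq5 followed with 5.12 ± 0.0179, and then Coq10a, Coq6, Coq10b and Coq3, from 4.48 down to 3.74 CPM per kb, whose neighbouring ranges overlapped. Coq7 (1.39 ± 0.0886), Coq4 (0.981 ± 0.0515) and Pdss1 (0.508 ± 0.0903) were lowest. The top and bottom of this order were 24.8-fold apart.

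At day 2 Coq9 led with 25.1 ± 0.0199 CPM per kb, above Coq2 with 20.4 ± 0.881 and Coq5 with 13.8 ± 0.531. Coq6 and Coq3 came next and overlapped, as did Coq10a and Coq10b. Pdss1, with 2.64 ± 0.0343, had moved above Coq7 and Coq4. At day 6 Coq9 stood at 84.8 ± 11.2 CPM per kb and Coq5 at 56.6 ± 6.53, with no overlap between them. Coq3 (28.9 ± 3.80) and Coq6 (26.2 ± 2.02) overlapped, and Coq2 (22.9 ± 0.768) was now below both. Coq10a (9.65 ± 1.49) and Coq7 (8.87 ± 1.36) overlapped, and Coq10b, Pdss1 and Coq4 closed the order at 6.83, 3.22 and 2.25 CPM per kb. The top and bottom were then 37.7-fold apart.

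**Figure D3:**
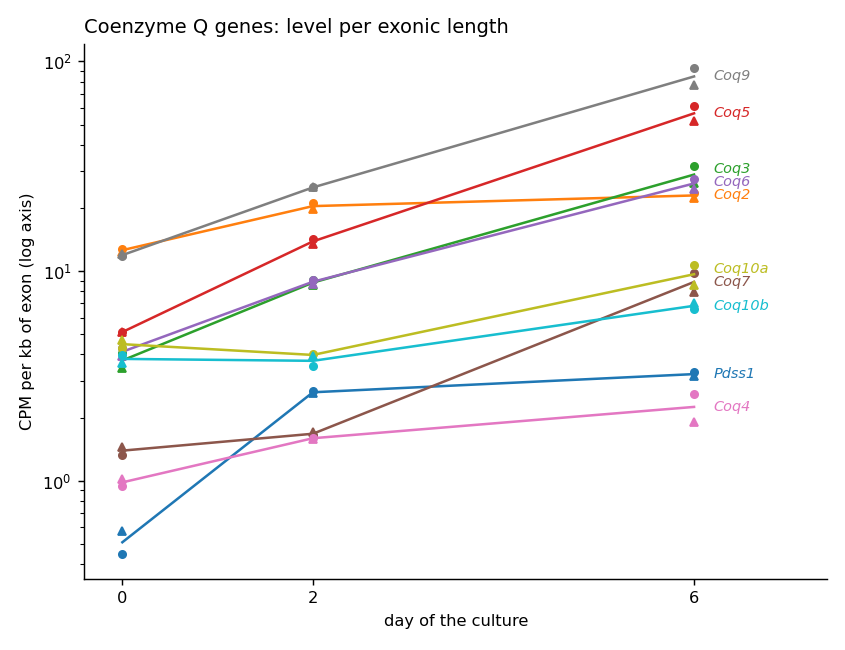
Level of each gene in CPM per kb of annotated exon (log axis) against day of culture. Lines join the means of 2 libraries, circles are replicate 76 and triangles replicate 77. Coq9 and Coq2 lead at day 0, Coq9 and Coq5 at day 6, and Pdss1 leaves the lowest place after day 0.

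The upstream sequences of the members were read from RefSeq (GRCm38.p6), since the members were all higher at day 6. Windows of 250 bases before the start site were found for 9 of the 10 genes, as 11 start sites, and Coq5 had none. Both Coq3 starts and the more upstream Coq10a start are listed in RefSeq, and the bases just after them were found in no transcript of the gene models used here. Shown first are the windows of Coq3, a gene that climbed in both stages, and of Coq7, which rose after day 2, as both lie outside annotated exons. The Coq3 window is chr4:21879396-21879645, plus strand, before the more upstream of its 2 listed starts. The Coq7 window is chr7:118533357-118533606, minus strand. Both are written from 5′ to 3′ along the gene, and no letters are in capitals because none of the motifs searched occurs in them. The window before the other listed Coq3 start, not shown, does hold a motif, which is named below.
Coq3: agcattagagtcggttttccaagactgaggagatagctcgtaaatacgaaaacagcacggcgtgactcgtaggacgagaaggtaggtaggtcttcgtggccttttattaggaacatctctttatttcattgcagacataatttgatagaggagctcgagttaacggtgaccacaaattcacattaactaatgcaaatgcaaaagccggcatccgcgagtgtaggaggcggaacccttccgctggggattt
Coq7: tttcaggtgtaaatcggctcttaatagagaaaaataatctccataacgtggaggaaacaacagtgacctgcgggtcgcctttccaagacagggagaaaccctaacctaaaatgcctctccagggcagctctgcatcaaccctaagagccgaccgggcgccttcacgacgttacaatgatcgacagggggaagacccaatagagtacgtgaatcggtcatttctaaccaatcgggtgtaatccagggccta

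On both strands, 5 short motifs were searched, which do not overlap one another in these windows. The core of the NRF1 site (GCGCATGCG), the core of ETS family sites (CCGGAAG) and the cyclic AMP response element (TGACGTCA) occurred in 0 of the 11 windows, beside 1.45%, 6.91% and 1.55% of all 32851 windows of this length. The core motif of many nuclear receptors with its preceding AA (AAGGTCA) occurred in 2 of 11, beside 4.08%, and the GC box (GGGCGG) in 3 of 11, beside 32.7%. The AAGGTCA matches lay before Pdss1 and Coq10a. That of Pdss1 was on the same strand, 248 to 242 bases from the start. That of Coq10a was before its more upstream start, which lies outside the gene's span given above. The Coq10a match was on the opposite strand, 230 to 224 bases away. The GC boxes lay before Coq3, Coq6 and Coq9. For Coq3 it was before the more downstream listed start, 10 to 5 bases away on the same strand. For Coq6 it was on the opposite strand, 85 to 80 bases away, and for Coq9 on the opposite strand, 25 to 20 bases away. The listed Coq9 start lies inside the gene's span given above, and all 250 bases of the Coq9 window are in annotated exons. The matches of Pdss1, Coq10a and Coq9 are shown in stretches of 30 bases, with the motif in capitals. The stretches are chr2:22895272-22895301 (plus) for Pdss1, chr10:128370250-128370279 (minus) for Coq10a and chr8:94838376-94838405 (plus) for Coq9. A match is a run of letters and no shown binding site.
Pdss1: atAAGGTCAacttagcttctgttacacaat
Coq10a: actctgagtctaTGACCTTatttgtgtaaa
Coq9: cccggcgcgtcgCCGCCCtcagcgtgcgtg

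Further genes of the synthesis route, taken from a list of 10, rose in most cases as well. By day 6, 8 of 10 were higher than at day 0 and none lower, beside 35.9% and 35.1% of all genes. By day 2, 7 were higher and none lower, beside 33.6% each way, and between day 2 and day 6, 8 were higher and 1 lower, beside 38.2% and 27.5%. The list's median log2 change was 1.23 at day 6 and 0.60 at day 2, both against day 0, beside -0.01 and 0.00 over all genes. Pdss2, the partner of Pdss1, was at 6.06 and 5.39 CPM at day 0, 10.9 and 10.8 CPM at day 2, and 25.0 and 23.0 CPM at day 6. Unlike Pdss1, whose later step did not pass, it was 2.22-fold higher at day 6 than at day 2 (adjusted p = 2.64e-05 by edgeR), and the difference between the partners was not tested.

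The atypical kinases Coq8a and Coq8b, which keep the COQ complex together and appear in the table under their older names Adck3 and Adck4, did not pass at day 2 (adjusted p = 0.235 and 0.0571 by edgeR). Coq8b passed in 5 of 11 alternatives (DESeq2 size factors, library totals, and without replicate 77 of day 0 or either library of day 6), and Coq8a without replicate 77 of day 6 alone (adjusted p = 0.043). Coq8a was at 7.41 and 6.79 CPM at day 0, 8.60 and 8.34 CPM at day 2, and 73.9 and 53.4 CPM at day 6, with both day 6 libraries far above the others. It was 8.94-fold higher at day 6 than at day 0 (log2 change 3.16, SE 0.16, adjusted p = 7.83e-07 by edgeR), and Coq8b was 2.37-fold higher. Hpdl, which in human cells makes an intermediate of the ring precursor, had the largest rise of this list. It had 0.331 and 0.535 CPM at day 0, 3.57 and 3.34 CPM at day 2, and 32.1 and 31.6 CPM at day 6, and was 74.5-fold higher at day 6 than at day 0 (log2 change 6.22, SE 0.18, adjusted p = 4.33e-08 by edgeR).

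Stard7, a lipid transfer protein, was 4.78-fold higher at day 6 than at day 0, and Parl, the membrane protease that cleaves it, 2.05-fold. The mitochondrial phosphatase Pptc7 was 2.30-fold higher, with 21.2% of its exonic length overlapping Rad9b on the opposite strand. The ferredoxin reductase Fdxr, which feeds electrons to Coq6 in human cells through the ferredoxin Fdx2, followed another course. Fdxr stood at 17.0 ± 0.480 CPM at day 0, 28.2 ± 0.976 at day 2 and 19.5 ± 0.416 at day 6 (SD, n = 2). It rose 1.66-fold by day 2 and was lower at day 6 than at day 2 (log2 change -0.53, SE 0.08, adjusted p = 0.000598 by edgeR). Fdx2, listed as Fdx1l, had log2 changes of -0.11 at day 2 and 0.19 at day 6 against day 0 (adjusted p = 0.337 and 0.111 by edgeR), and 72.7% of its exonic length overlaps other genes.

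**Figure D4:**
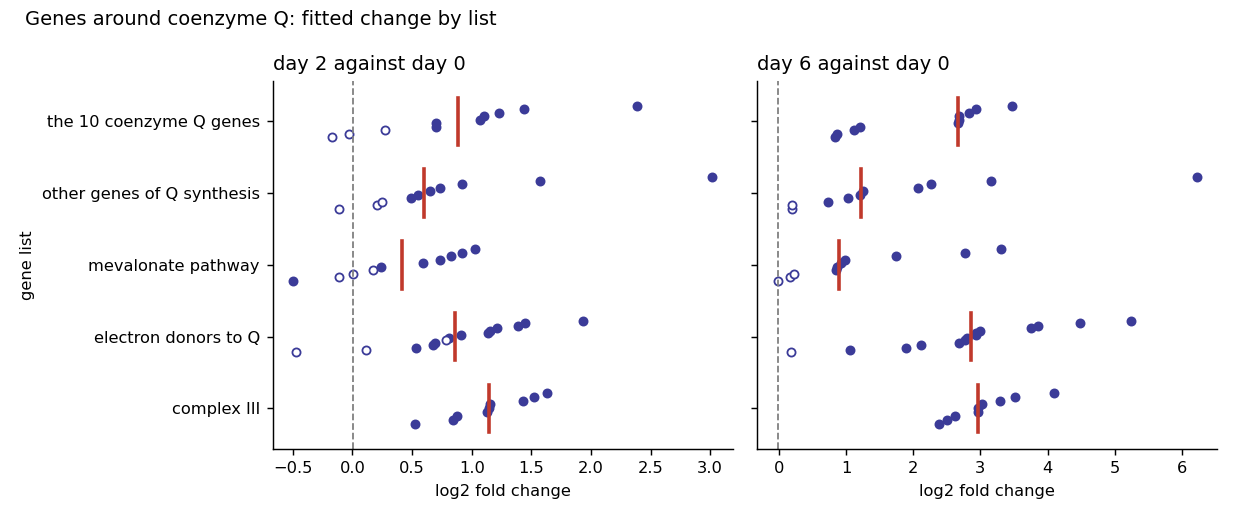
Fitted log2 fold change (x axis) of each gene, by list (rows), at day 2 and at day 6 against day 0. Filled circles passed the edgeR test at an adjusted p of 0.05, red bars are list medians and the dashed line is the median of all genes tested. At day 6 the medians are 2.67 for the 10 coenzyme Q genes, 1.23 for other genes of the route and 0.89 for the mevalonate pathway. They are 2.86 for the listed genes of electron transfer to Q and 2.97 for complex III.

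The mevalonate pathway, which supplies the isoprenoid units of the tail and also of cholesterol, moved in part. Of 10 genes, 6 were higher and 1 lower at day 2 than at day 0 (Fdft1, squalene synthase, with a log2 change of -0.49), beside 33.6% of all genes each way. The call of Fdft1 did not hold without replicate 77 of day 0 (log2 change -0.29). The median log2 change over all genes was then 0.14. At day 6 against day 0, 7 were higher and none lower, or 8 with a replicate block, beside 35.9% and 35.1% of all genes, with a median log2 change of 0.89. Pmvk, the phosphomevalonate kinase, had the largest rise. It was at 18.2 and 19.5 CPM at day 0, 30.1 and 32.4 CPM at day 2, and 212 and 161 CPM at day 6, 9.92-fold higher at day 6 than at day 0 (log2 change 3.31, SE 0.14, adjusted p = 2.25e-07 by edgeR).

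Nearly all listed genes of electron transfer to coenzyme Q were higher by day 6. The list held genes, some of them for subunits of the same enzyme, and left out complex I. Of 14, 11 were higher and none lower at day 2 than at day 0, beside 33.6% of all genes each way, and 13 were higher and none lower at day 6, beside 35.9% and 35.1%, with medians of 0.86 and 2.86. Gpd2, the mitochondrial glycerol phosphate dehydrogenase, had a log2 change of -0.47 at day 2 (adjusted p = 0.102 by edgeR), which passed in the fit with a replicate block (adjusted p = 0.0382), without a filter and without either library of day 6, with adjusted p of 2.99e-05 to 0.391 over the 11 alternatives. The largest fitted change at day 6 against day 0 was that of Chdh, choline dehydrogenase (log2 change 5.24, SE 0.72, adjusted p = 0.000236 by edgeR). It had 37 counts over both day 6 libraries and 1 over both at day 0. The ratio of CPM from these pooled counts, which is not the fitted change, was 47.5, with an exact 95% counting interval of 8.01 to 1926. Intervals of this kind cover counting error only. The next 3 of the list were singled out after their values were seen. Prodh, proline dehydrogenase, was 22.3-fold higher at day 6 than at day 0 (log2 change 4.48, SE 0.29, adjusted p = 2.80e-06 by edgeR). Etfdh, which passes electrons from fatty acid oxidation to Q, was 13.4-fold higher at day 6 than at day 0 (log2 change 3.75, SE 0.11), and Aifm2, which reduces Q outside mitochondria, 14.6-fold (log2 change 3.86, SE 0.12), with adjusted p = 4.60e-08 and 5.62e-08 by edgeR. All 9 listed nuclear genes of complex III, which takes electrons from Q, were higher in each comparison, beside 33.6% to 38.2% of all genes, with a median log2 change of 2.97 at day 6 against day 0. The iron-sulfur subunit Uqcrfs1 had the largest rise among them, 17.1-fold.

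The members were close to one another in pattern to different degrees. Pearson's r over the 6 libraries, between a gene's log2 CPM and the mean standardised profile of the other 9 members, was 0.997 to 0.9997 for Coq3, Coq5, Coq6 and Coq9, 0.947 for Coq4, 0.939 for Coq7 and 0.818 to 0.870 for Coq2, Coq10a, Coq10b and Pdss1. These points share their libraries and their 3 days, so the values describe the course and nothing finer. Of 14449 other genes, 1822 had an r above 0.95 with the mean profile of the 10. The 5 highest were Mtch2, an outer mitochondrial membrane protein, Hibch, an enzyme of valine breakdown, Slc25a44, a carrier of branched-chain amino acids, Mum1, a PWWP domain protein, and Ndufa4, a subunit of the respiratory chain, with r of 0.99974 to 0.99996.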

How the data were processed

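RNA was measured in 6 libraries of cultured stromal-vascular cells, 2 at each of days 0, 2 and 6, grouped by their titles. The deposited values are raw counts per gene, although the column names say RPKM: they are whole numbers and each column ends in HTSeq's summary lines. Per the submitters' processing notes, TopHat2 2.0.13 and HTSeq 0.9.1 were used, with mm10 and GRCm38 named as builds; which annotation and strand setting the counting used is not stated. HTSeq's summary lines entered neither library sizes nor tests. They held 2.62% to 3.23% of counted alignments as outside features, 4.40% to 4.91% as ambiguous and 4.16% to 9.05% as not unique. Genes of the mitochondrial genome took 0.502% to 3.88% of gene counts, most at day 6.

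All 14459 genes that passed filterByExpr were fitted at once with edgeR 4.0.16 in R 4.3.3 (TMM, quasi-likelihood F test, a mean per day, 3 residual degrees of freedom), with Benjamini-Hochberg adjustment over all genes and a threshold of 0.05. SE is the absolute log2 change over the square root of F. The steps were also run on counts simulated without a replicate effect and with few changed genes, unlike these data. That run is no support for the results. Alternatives were DESeq2 size factors, library totals, no filter, the Wald test of DESeq2 1.42.0, a replicate block and leaving out each library. Gene models, overlaps and shared 50-base stretches come from GENCODE M21 on GRCm38, older symbols from RefSeq synonyms. Libraries with the same number deviated together from their day means (Pearson's r across genes 0.109, 0.112 and 0.213, all over 0.1). The numbers may thus pair them, a pairing that comes from the data. The main fit did not use it, and only the replicate block among the alternatives did. Same-day libraries were further apart than counting noise (chi-square per degree of freedom 6.75, 7.53 and 26.3), and each counted once. The members and lists were chosen with earlier results of these data known. Named are all 10 members, the genes of the further synthesis list (1 is not reported here), the largest rise and fall called at day 6 against day 0 in each other list, and the 5 genes most like the members; neighbours, further kinases, Fdft1, Gpd2, Prodh, Etfdh and Aifm2 were added after values were seen.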

Additional observations from a re-analysis of the deposited data

How the results depend on the processing

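For the 30 member results (10 genes in 3 comparisons) under 11 alternatives, 306 of 330 values kept their direction and their side of the threshold, 9 reversed, 6 newly passed and 9 no longer passed. All 10 genes were higher at day 6 than at day 0 under every one of the 11. Without one library, 6 to 8 genes were higher at day 2 than at day 0 and 7 to 9 at day 6 than at day 2. The replicate block changed no call of the 10 genes, and with it 7 were higher at day 2 and 10 at day 6, both against day 0. Library totals moved the median log2 change of all genes from 0.00 to 0.12 at day 2 against day 0, from -0.01 to -0.26 at day 6 against day 0 and from 0.12 to -0.23 at day 6 against day 2. In that last comparison they turned 5519 higher and 3981 lower genes into 3650 higher and 6181 lower, and 1 of the 10 genes was then lower: Coq2, at -0.19, while Pdss1 went to -0.0707 without passing. In day 2 against day 0, Coq10b (-0.03) turned to 0.00841 with DESeq2 size factors, 0.0792 with library totals and 0.0162 with the DESeq2 test. Leaving out 1 library gave it -0.09996 to 0.0543, above 0 without replicate 76 or 77 of day 0 or replicate 76 of day 2, and none of these passed. Coq10a (-0.17) turned to 0.0405 without replicate 77 of day 0. In that setting the median log2 change of all genes at day 2 against day 0 was 0.14, beside 0.00 in the main fit. The cause was not tested. With 2 libraries a day, the small steps of Coq4 after day 2 and of Coq7 before it changed side of the threshold most often, in 8 and 5 of the 11.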

Other observations

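The 3 further members of the kinase family of Coq8a and Coq8b, looked up after other values were seen, took different courses. Adck1 was at 12.1 ± 0.159 CPM at day 0, 14.4 ± 0.513 at day 2 and 31.9 ± 0.520 at day 6 (SD, n = 2), 2.63-fold higher at day 6 than at day 0 (adjusted p = 2.30e-06 by edgeR). Adck2 was at 12.4 ± 1.01, 15.8 ± 1.07 and 17.4 ± 0.181 CPM. Adck5 was at 21.5 ± 0.204, 24.2 ± 1.63 and 17.6 ± 0.434 CPM and was lower at day 6 than at day 0 (log2 change -0.29, SE 0.09, adjusted p = 0.0189 by edgeR). The fall of Adck5 did not pass when either library of day 0 or replicate 77 of day 6 was left out, with edgeR's adjusted p then at 0.0869 (76, day 0), 0.0831 (77, day 0) and 0.0589 (77, day 6). Over the 11 alternatives its adjusted p was 0.000893 to 0.0869.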
